A study of Homo sapiens with 6 samples.

Results

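The genes described here are 10 with a role in the handling of gemcitabine, a deoxycytidine analog used against pancreatic cancer. They cover its transport (SLC29A1, SLC29A2 and SLC28A3) and its activation (DCK and CMPK1). They also cover its inactivation (CDA and DCTD) and its target ribonucleotide reductase (RRM1, RRM2 and RRM2B). All 10 were found by gene ID among the 30727 gene models of each file, and 9 of them passed the filter on low counts. The study sequenced polyadenylated RNA of PANC-1, an established human line of pancreatic ductal carcinoma, in 3 libraries given siRNA against SUV420H2 and 3 control libraries. SUV420H2, now named KMT5C, methylates lysine 20 of histone H4. No library is labelled as treated with gemcitabine. The sources used here give neither the siRNA sequence nor the kind of control nor the time of treatment, and the labels do not say whether the libraries came from separate cultures. Any p-value therefore measures only the spread between these samples, which may be technical.

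Gemcitabine enters cells through equilibrative nucleoside transporters, encoded by the SLC29 genes, and through concentrative ones, encoded by the SLC28 genes. Deoxycytidine kinase adds the rate-limiting phosphate and UMP-CMP kinase the next, and the resulting diphosphate inhibits ribonucleotide reductase while the triphosphate is built into DNA. Cytidine deaminase turns the drug into an inactive uridine form, and dCMP deaminase does the same to its monophosphate. The same enzymes serve the salvage and balance of the cell's own pyrimidine nucleotides.

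The genes were chosen by their role in gemcitabine handling, and the set was selected on the high level of CDA in the knockdown libraries, measured in the same contrast as here. The difference between knockdown and control for these 10 genes is therefore given as a description, without p-values. In bulk RNA, fewer cells of a type and less RNA per cell cannot be told apart.

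Each control held between 20863594 and 25931995 counted reads, and each knockdown library between 27007534 and 38022772. KMT5C had 9.55, 7.23 and 12.7 CPM (reads relative to the TMM-scaled library size) in the controls and 6.03, 6.11 and 5.86 CPM in the knockdown, so the knockdown libraries stood at 61.2% of the control mean. The keratins KRT8, KRT18 and KRT19 of duct cells were abundant in both groups, while CFTR, another duct gene, had 4 reads in the controls together and 0 in the knockdown. The 10 duct markers summed to between 2715 and 3269 CPM in the controls and between 6321 and 6535 CPM in the knockdown. Most of that sum came from KRT8 (892.8 and 2590 CPM on average) and KRT18 (791.1 and 2343 CPM). CDH1, EPCAM, KRT7 and CLDN1 rose past the threshold too, by 3.46, 2.35, 1.29 and 0.89 on the log2 scale. In contrast, KRT19, MUC1 and SOX9 fell past it, by 0.32, 1.83 and 0.14. The 6 leukocyte markers summed to 2.31 to 2.98 CPM in the controls and 3.86 to 4.71 CPM in the knockdown, with PTPRC at 1 and 2 reads in all. CD14 had 38 reads in the controls together and 173 in the knockdown, CSF1R 11 and 39, and ITGAM 135 and 181. Sums of 5 markers each stayed at or under 0.235 CPM for acinar cells. For islets they were 1.21 to 2.12 CPM in the controls and 2.40 to 3.16 CPM in the knockdown. For astrocytes they were 0.0392 to 0.120 CPM in the controls and 0.261 to 0.479 CPM in the knockdown. The neuron sums, mostly from MAP2, were 56.2 to 57.8 CPM in the controls and 37.1 to 41.3 CPM in the knockdown. The 6 fibroblast and endothelial markers summed to 1.98 to 2.23 CPM in the controls and 7.60 to 8.17 CPM in the knockdown, nearly all from PDGFRB, with DCN at 0 and 1 reads and PECAM1 at 1 and 2 reads. The part of these markers in the results was not tested.

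CDA was the member that differed most. It was close to absent in the controls and clearly present in every knockdown library, and none of the other 8 measured members differed by as much as 2-fold. The knockdown libraries all lay above the controls for RRM1, DCK and SLC29A1, by smaller amounts. They all lay under the controls for DCTD, CMPK1, RRM2 and SLC29A2, and RRM2B overlapped between the groups.

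**Figure D1:**
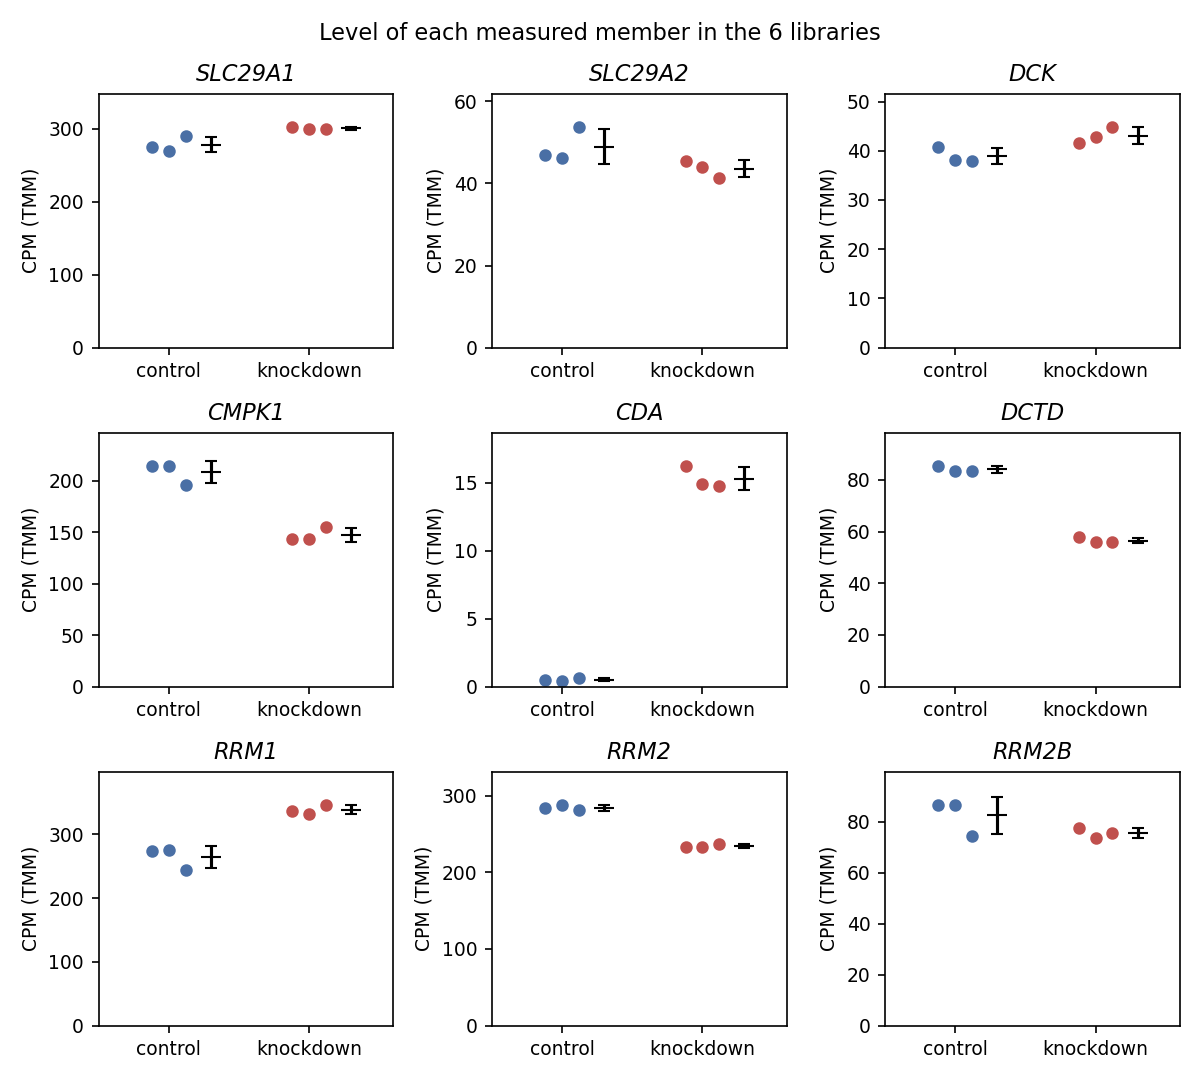
Level of each of the 9 measured members in CPM (TMM-scaled, linear axis from 0), with 1 point per library and the mean ± SD of each group beside the points (n = 3). CDA goes from under 1 CPM in the controls to about 15 CPM in the knockdown, while the other members stay within a narrow range, and 1 control point of RRM2B lies among those of the knockdown, with the other controls above them.

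Of the 9 measured members, 4 were higher and 4 lower past an adjusted p of 0.05 in edgeR's quasi-likelihood test, against 67.3% of all 15190 genes tested. The same 8 did not overlap between the groups (4 higher, 4 lower), against 71.3% of all genes tested (35.0% higher, 36.3% lower). CDA alone reached 2-fold past the threshold, as 14.0% of all genes did, and CDA alone passed against a 1.5-fold change in edgeR's glmTreat, as 19.7% did. These counts are a description, since the set was drawn from this contrast on the rise of CDA. That CDA passed follows from this choice and is no support for its rise. The size of the difference had a median of 0.28 on the log2 scale over the 9 members and of 0.35 over all genes tested. Leaving out any knockdown library left 5 members past the threshold (CDA, DCTD, CMPK1, RRM1 and RRM2), and DCK, SLC29A1 and SLC29A2 were not among them. Leaving out control replicate 1 or 2 left 6, and without control replicate 3 RRM2B was past the threshold and SLC29A2 was not.

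CDA encodes cytidine deaminase, the main enzyme of gemcitabine inactivation, on GRCh38 chromosome 1 (20589097 to 20618903). The controls had 13, 8 and 16 reads, and the knockdown libraries had 623, 406 and 443. On the CPM scale these were 0.519, 0.386 and 0.627 in the controls and 16.3, 14.9 and 14.7 in the knockdown. The lowest knockdown library stood far above the highest control. The log2 fold change was 4.88 (SE 0.141), or 29.3-fold, a size that 22 of the 15190 genes tested, CDA among them, reached or passed in the same direction (0.145%). From the pooled 1472 and 37 reads, the ratio corrected for library totals was 30.2, with an exact 95% interval of 21.8 to 43.1 that covers counting error only. Thinning all libraries to the smallest total gave a log2 fold change of 5.04.

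The stretch upstream of CDA is shown because this member changed most, beside that of DCK, the kinase that activates the drug and that barely differed. Each is the 250 bases before the gene's start in RefSeq (GRCh38.p14, plus strand, 5′ to 3′), with every CG dinucleotide in capitals.
CDA, chr1:20588847-20589096: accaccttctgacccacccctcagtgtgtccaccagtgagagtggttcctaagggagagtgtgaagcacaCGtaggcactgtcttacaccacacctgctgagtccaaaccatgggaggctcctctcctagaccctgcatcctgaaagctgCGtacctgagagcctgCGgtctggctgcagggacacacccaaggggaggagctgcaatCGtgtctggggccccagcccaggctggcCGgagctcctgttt
DCK, chr4:70993399-70993648: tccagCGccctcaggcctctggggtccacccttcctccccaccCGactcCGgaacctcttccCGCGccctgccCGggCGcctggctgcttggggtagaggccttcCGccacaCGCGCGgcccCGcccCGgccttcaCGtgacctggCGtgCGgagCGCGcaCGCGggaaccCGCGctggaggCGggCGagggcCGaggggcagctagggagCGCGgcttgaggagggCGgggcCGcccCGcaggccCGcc
The CDA window held 5 CG dinucleotides and that of DCK held 31. Of the 35116 upstream windows in the table, 38.1% held no more CG dinucleotides than CDA and 90.5% no more than DCK. Among windows of genes tested here the median was 20, and 14.6% held no more than CDA.

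Windows were at hand for 7 members. That of RRM2 lies mostly inside the annotated span of the gene, since its table entry uses a later start, so its letters are not strictly upstream. CMPK1 had 16 CG dinucleotides, RRM1 18, SLC29A1 19, DCTD 23 and RRM2 27, so CDA had the fewest of the 7. The letters CACCTG or their reverse complement CAGGTG, a form of the E-box, occurred in the windows of CDA and RRM1 and in 17.5% of all windows (16.1% of those of tested genes). In CDA the match began 159 bases before the start and in RRM1 158 bases before it. The letters GGGCGG or CCGCCC occurred in the windows of DCK, DCTD, SLC29A1 and RRM1, not in those of CDA, CMPK1 and RRM2, and in 42.6% of all windows (62.6% of those of tested genes). CCAAT or ATTGG, which occurred in 32.0% of all windows and 32.3% of those of tested genes, was found in RRM1 and 3 times in the RRM2 window, with the limit just given. TATAAA or TTTATA, in 10.7% of all windows and 5.97% of those of tested genes, was found in none of the 7. These matches are descriptions of the letters only.

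The chromosome around CDA was compared next, in the 3 nearest tested protein-coding genes on each side. The neighbours nearest to CDA on either side both rose, and those beyond them did not share a direction. FAM43B, whose gene ends 34.1 kb before CDA, had 8, 10 and 16 reads in the controls and 96, 80 and 77 in the knockdown. That is 0.476 ± 0.154 and 2.67 ± 0.239 CPM (SD, n = 3), a log2 fold change of 2.47 (SE 0.215, edgeR adjusted p = 1.67e-06). PINK1, the mitochondrial kinase gene that begins 14.6 kb after CDA, had 32.7 ± 3.44 CPM in the controls and 147.8 ± 3.35 CPM in the knockdown (SD, n = 3), a rise of 2.17 on the log2 scale (SE 0.0671, edgeR adjusted p = 8.53e-10).

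PINK1 overlaps the antisense gene PINK1-AS, which held 4358 reads in the controls and 12067 in the knockdown. Whether the counting used strand is not stated, which leaves the value of PINK1 uncertain. Farther out, KIF17, a kinesin gene, rose by 0.60 (SE 0.140, edgeR adjusted p = 0.00282). DDOST, a subunit of oligosaccharyltransferase, fell by 0.37 (SE 0.0376, edgeR adjusted p = 6.53e-06), and it too overlaps PINK1-AS. MUL1, a mitochondrial ubiquitin ligase, fell by 0.39 (SE 0.0576, edgeR adjusted p = 0.00011). CAMK2N1, an inhibitor of a calmodulin-dependent kinase, stood at −0.04 (SE 0.126, edgeR adjusted p = 0.771) and did not pass. Of these 6 neighbours, 3 rose and 2 fell, against 33.1% and 34.2% of all genes tested.

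**Figure D2:**
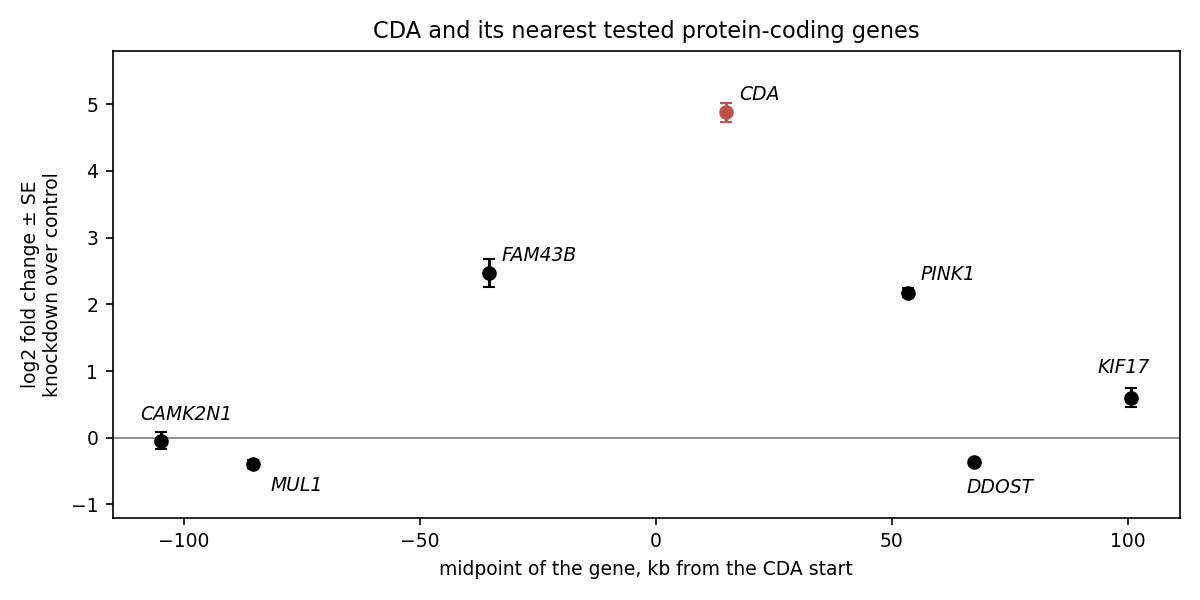
Log2 fold change (knockdown over control, ± SE) of CDA, in red, and of its 3 nearest tested protein-coding genes on each side, in black, against the midpoint of each gene in kb from the CDA start. CDA stands at 4.88, FAM43B at 2.47 and PINK1 at 2.17, and the outer 4 genes lie between −0.39 and 0.60.

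The genes most like CDA in their pattern were sought by the Euclidean distance between log2 CPM values over the 6 libraries, each gene centred on its own mean. The 5 nearest were SPINT1-AS1 (distance 0.25), SYT12 (0.45), ANKRD1 (0.55), FOXA1 (0.56) and ESRP1 (0.67). Their log2 fold changes were 5.26, 5.13, 5.25, 4.39 and 4.90 in that order. The likeness thus rests largely on the difference between the groups, on which the set was selected through CDA. SYT12, a synaptotagmin, went from 0.659 ± 0.202 to 23.7 ± 0.932 CPM, and ANKRD1, an ankyrin repeat protein, from 0.641 ± 0.0905 to 24.7 ± 0.738 CPM (SD, n = 3 each). FOXA1, an epithelial and endodermal transcription factor, went from 0.877 ± 0.320 to 18.9 ± 1.05 CPM, and ESRP1, an epithelial splicing regulator, from 0.226 ± 0.0256 to 6.83 ± 0.340 CPM (SD, n = 3 each). The control level of ESRP1 rests on 5 to 6 reads per library. SPINT1-AS1 overlaps SPINT1, which had 22881 reads against 746, so its own value is uncertain.

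DCTD encodes dCMP deaminase, on chromosome 4 (182890091 to 182917611). Its levels were 85.5, 83.4 and 83.4 CPM in the controls and 57.7, 55.9 and 55.9 CPM in the knockdown. Each knockdown library lay well under each control, and both groups were tight. The difference was −0.57 on the log2 scale (SE 0.0441), so the knockdown stood at 67.2% of the control level. The deaminases of the set thus lay on opposite sides of the control level.

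DCK, deoxycytidine kinase (chromosome 4, 70993649 to 71030914), had 40.7, 38.02 and 37.97 CPM in the controls and 41.7, 42.7 and 44.9 CPM in the knockdown. The groups did not overlap, but the lowest knockdown library was within 1 CPM of the highest control. The log2 fold change was 0.15 (SE 0.0566). CMPK1, UMP-CMP kinase (chromosome 1, 47333790 to 47378839), had 214.0, 214.4 and 196.1 CPM in the controls and 142.8, 143.2 and 154.9 CPM in the knockdown. Its groups lay far apart, with control replicate 3 the lowest of the controls. The log2 fold change was −0.50 (SE 0.0514), or 70.6% of the control level.

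Of the transporters, SLC29A1 (chromosome 6, 44219615 to 44234142) encodes ENT1, the main carrier of gemcitabine into cells. It had 274.6, 270.4 and 290.9 CPM in the controls and 303.1, 299.5 and 299.3 CPM in the knockdown. The groups did not overlap, and the log2 fold change was 0.11 (SE 0.0416). SLC29A2 (chromosome 11, 66362521 to 66372446) encodes the related ENT2 and had 47.0, 46.1 and 53.8 CPM in the controls and 45.5, 44.0 and 41.3 CPM in the knockdown. The difference of −0.17 (SE 0.0685) leaned on control replicate 3, the highest of the 6, and was −0.10 without it. SLC29A2 overlaps the noncoding gene B4GAT1-DT, with 575 reads against 7687.

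SLC28A3 (chromosome 9, 84275457 to 84368727), the concentrative transporter CNT3, was hardly read at all. It had 0 reads in each control and 1, 2 and 0 in the knockdown. Over the 71948929 reads of the controls, a count of 0 allows up to 3 reads, or 0.0417 CPM, so no fold change was computed. The other concentrative transporters, SLC28A1 and SLC28A2, were also under the filter on low counts, with 1 and 4 reads in the controls together and 21 and 7 in the knockdown.

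RRM1 encodes the large, catalytic subunit of ribonucleotide reductase (chromosome 11, 4094685 to 4138932). It had 273.4, 275.3 and 244.5 CPM in the controls and 337.3, 332.4 and 346.8 CPM in the knockdown. All knockdown libraries were higher, and control replicate 3 was the lowest of the 6. The log2 fold change was 0.36 (SE 0.0507). RRM2 encodes the small subunit made in S phase (chromosome 2, 10122568 to 10211010). It had 283.3, 288.2 and 280.6 CPM in the controls and 233.0, 232.6 and 236.6 CPM in the knockdown. The groups were tight and apart, in the direction opposite to RRM1, with a log2 fold change of −0.28 (SE 0.0376).

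RRM2B encodes the small subunit that p53 induces and that works outside S phase. Its levels were 86.5, 86.8 and 74.3 CPM in the controls and 77.5, 73.5 and 75.8 CPM in the knockdown. Control replicate 3 lay among the knockdown libraries, and the other controls lay above them all. The difference was −0.13 on the log2 scale (SE 0.0619) with all libraries and −0.20 without control replicate 3.

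Control replicate 3 was the control farthest from the median of the controls for 5 of the 9 measured members (CMPK1, SLC29A1, SLC29A2, RRM1 and RRM2B), and for 59.1% of all genes tested. The SD of log2 CPM was wider in the controls than in the knockdown for 8 of the 9 members, all but DCTD, and for 73.2% of all genes tested.

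To compare levels between genes, the authors' size-factor-adjusted RPKM, which divides by gene length, was used. In the controls, SLC29A1 (82.5 ± 2.54 RPKM), RRM1 (80.2 ± 5.87) and RRM2 (80.1 ± 1.65; SD, n = 3 each) led, and neighbours among these 3 overlapped over libraries. CMPK1 (57.5 ± 3.34) and DCTD (29.5 ± 0.590) followed, each apart from its neighbours. RRM2B (15.4 ± 1.44), SLC29A2 (15.1 ± 1.18) and DCK (14.5 ± 0.654) overlapped with one another. CDA, at 0.514 ± 0.118 RPKM, lay far under them and above only SLC28A3, which was listed at 0.

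In the knockdown libraries the 3 leading genes no longer overlapped. RRM1 (104.1 ± 2.32 RPKM) stood above SLC29A1 (90.2 ± 0.579), and SLC29A1 above RRM2 (66.8 ± 0.683; SD, n = 3 each). CDA reached 15.6 ± 0.835 RPKM, a range that overlapped that of DCK (16.2 ± 0.635) and lay above RRM2B (14.2 ± 0.375) and SLC29A2 (13.6 ± 0.657), which overlapped with each other.

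**Figure D3:**
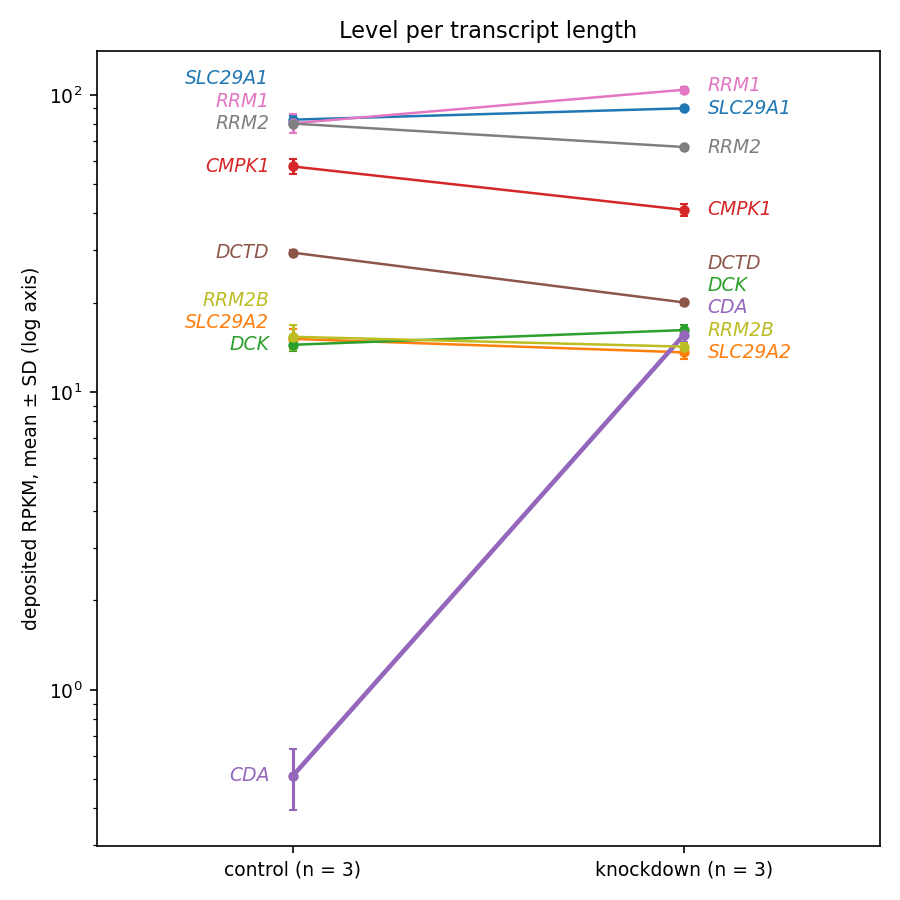
Deposited RPKM of the 9 measured members, as mean ± SD of 3 libraries on a log axis, with a line joining the control and the knockdown mean of each gene. CDA climbs from 0.514 RPKM, far under the others, to the level of DCK, while the lines of RRM1 and RRM2 part.

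Ratios of RPKM within a library put the members side by side. The ratio of CDA to DCK was 0.0346, 0.0275 and 0.0448 in the controls and 1.06, 0.950 and 0.892 in the knockdown, so that the RNA of the inactivating enzyme went from a small share of that of the activating kinase to about the same level. DCK over DCTD went from 0.49 ± 0.0126 to 0.808 ± 0.0432, and RRM1 over RRM2 from 1.0 ± 0.0555 to 1.56 ± 0.0198 (SD, n = 3 each). The ratio of SLC29A1 to SLC29A2 went from 5.47 ± 0.249 to 6.62 ± 0.294. RRM2 over RRM2B was 4.96, 5.03 and 5.72 in the controls and 4.55, 4.79 and 4.73 in the knockdown. For each of these 5 ratios the groups did not overlap. The CPM of 71.3% of all genes tested did not overlap either, but that share is of single genes. No share over ratios of gene pairs was computed. The ratios combine members of a set drawn from this contrast, so they are a description. RNA levels do not give enzyme activity, which was not measured here.

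The rest of nucleotide metabolism was followed in 8 lists with 127 genes, of which 110 passed the filter on low counts. Of these 110, 35 rose and 41 fell (69.1%), close to the 67.3% of all genes tested, with a median of −0.04 against −0.01 over all genes. Changes of at least 2-fold were 3 rises and 10 falls, against 8.01% and 6.01% of all genes tested. Tested against a 1.5-fold change with edgeR's glmTreat, 23 of the 110 passed, 10 higher and 13 lower, where 19.7% of all genes tested passed.

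Of 6 tested genes of other nucleoside and nucleotide transporters, 4 rose and none fell in edgeR's quasi-likelihood test. Over all genes tested, 33.1% rose and 34.2% fell. SLC29A4 (0.17) and ABCC4 (0.08) did not pass. SLC29A3, the lysosomal equilibrative transporter ENT3, had 13.6 ± 0.876 CPM in the controls and 31.0 ± 1.72 CPM in the knockdown (SD, n = 3), a rise of 1.19 on the log2 scale (SE 0.0730, edgeR adjusted p = 1.05e-07). ABCG2, an efflux pump, rose by 0.96 (SE 0.0458, edgeR adjusted p = 1.58e-08). ABCC5, an exporter of nucleotide analogs, rose by 0.60 and ABCC10 by 0.21 on the log2 scale; ABCC10 overlaps DLK2, so its value is uncertain.

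Among the other nucleoside and nucleotide kinases, 5 of 24 rose and 11 fell, against 33.1% and 34.2% of all genes tested. The mitochondrial deoxynucleoside kinases both fell, TK2 by 0.90 (SE 0.0708, edgeR adjusted p = 7.54e-07) and DGUOK by 0.68 on the log2 scale (SE 0.0528, edgeR adjusted p = 7.15e-07). TK2 had 20.7 ± 0.829 CPM in the controls and 11.1 ± 0.492 CPM in the knockdown. TK1, another thymidine kinase, rose instead, by 0.91 (SE 0.0786, edgeR adjusted p = 1.62e-06). TK1 was chosen for mention after its value was seen. AK5, an adenylate kinase, fell by 2.44 on the log2 scale (SE 0.188, edgeR adjusted p = 6.33e-07), with 3.39 ± 0.203 CPM in the controls and 0.639 ± 0.173 CPM in the knockdown. NME2, a nucleoside diphosphate kinase, fell by 1.56 (SE 0.0628), but it overlaps the readthrough gene NME1-NME2, which held 74055 reads against 46266, so the value is uncertain. DGUOK overlaps DGUOK-AS1, with 1676 reads against 6377.

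The nucleotidases and dNTP hydrolases split evenly, with 3 of 12 up and 3 down, against 33.1% and 34.2% of all genes tested. NT5E, the surface nucleotidase CD73, fell by 1.07 on the log2 scale (SE 0.0464, edgeR adjusted p = 7.99e-09), with 460.6 ± 23.8 CPM in the controls and 219.1 ± 3.57 CPM in the knockdown. DUT, which hydrolyses dUTP, fell by 0.64 (SE 0.0625), while the cytosolic nucleotidase NT5C2 rose by 0.36 and overlaps CNNM2, with 7067 reads against 37442. SAMHD1, a dNTP hydrolase, stood at −0.12 (SE 0.0569, edgeR adjusted p = 0.0805) and did not pass. It was chosen for mention after its value was seen.

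Of 15 tested deaminases outside the set, 5 rose and 8 fell, against 33.1% and 34.2% of all genes tested. None of the 5 rises reached 2-fold, and the highest log2 value was 0.46, in ADAT3, which was picked out after its value was seen. GDA, guanine deaminase, fell by 1.33 on the log2 scale (SE 0.0832, edgeR adjusted p = 1.21e-07), with 21.6 ± 1.92 CPM in the controls and 8.56 ± 0.255 CPM in the knockdown. The DNA cytidine deaminases APOBEC3C (−1.23, SE 0.0832) and APOBEC3B (−0.69, SE 0.0830) fell, as did the RNA editing enzyme ADAR (−0.54, SE 0.0410). The APOBEC3 genes are near relatives that may share reads, and APOBEC3B also overlaps an antisense gene, so these values are uncertain.

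In pyrimidine and thymidylate synthesis, 4 of 13 genes rose and 5 fell, against 33.1% and 34.2% of all genes tested. CTPS1, which makes CTP from UTP, rose by 0.64 on the log2 scale (SE 0.0423, edgeR adjusted p = 1.82e-07), with 209.1 ± 7.45 CPM in the controls and 326.8 ± 6.51 CPM in the knockdown. The mitochondrial folate enzymes MTHFD2 (−0.98, SE 0.0446) and MTHFD1L (−0.52, SE 0.04) fell. In pyrimidine salvage and breakdown, 1 of 4 tested genes rose and 3 fell, against the same shares. UPP1, uridine phosphorylase, rose by 1.23 on the log2 scale (SE 0.0691, edgeR adjusted p = 5.47e-08), with 166.9 ± 17.9 CPM in the controls and 391.9 ± 17.7 CPM in the knockdown. DPYD, which starts the breakdown of uracil, fell by 1.24 (SE 0.184, edgeR adjusted p = 0.000114), TYMP, thymidine phosphorylase, by 1.08 (SE 0.187, edgeR adjusted p = 0.000382) and UPRT by 0.35. TYMP was 53.6 CPM in control replicate 3 against 31.8 and 28.9 in the other controls, overlaps SCO2, and stood at −0.75 without that library.

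In purine synthesis and salvage, 2 of 16 genes rose and 7 fell, against 33.1% and 34.2% of all genes tested. IMPDH2, which commits IMP to guanine nucleotides, fell by 1.03 on the log2 scale (SE 0.0448, edgeR adjusted p = 8.21e-09), with 181.6 ± 2.71 CPM in the controls and 88.9 ± 3.62 CPM in the knockdown. HPRT1, the purine salvage enzyme, fell by 1.01 (SE 0.0489) and PFAS, of the synthesis pathway, by 0.53. PFAS overlaps CTC1, which held 5312 reads against 10524, so its value is uncertain. PRPS1, which makes the ribose phosphate for both purines and pyrimidines, rose by 0.46 (SE 0.0515). Of the 20 replicative polymerase and checkpoint genes, 11 rose and 4 fell, against the same shares of all genes tested. WEE1, the kinase that holds CDK1 inactive, rose by 1.76 on the log2 scale (SE 0.0474, edgeR adjusted p = 3.24e-10), with 60.3 ± 2.94 CPM in the controls and 204.4 ± 2.40 CPM in the knockdown. CHEK1, the checkpoint kinase activated when replication stalls, rose by 0.70 (SE 0.0508), RPA1 by 0.75 and POLE by 0.70.

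**Figure D4:**
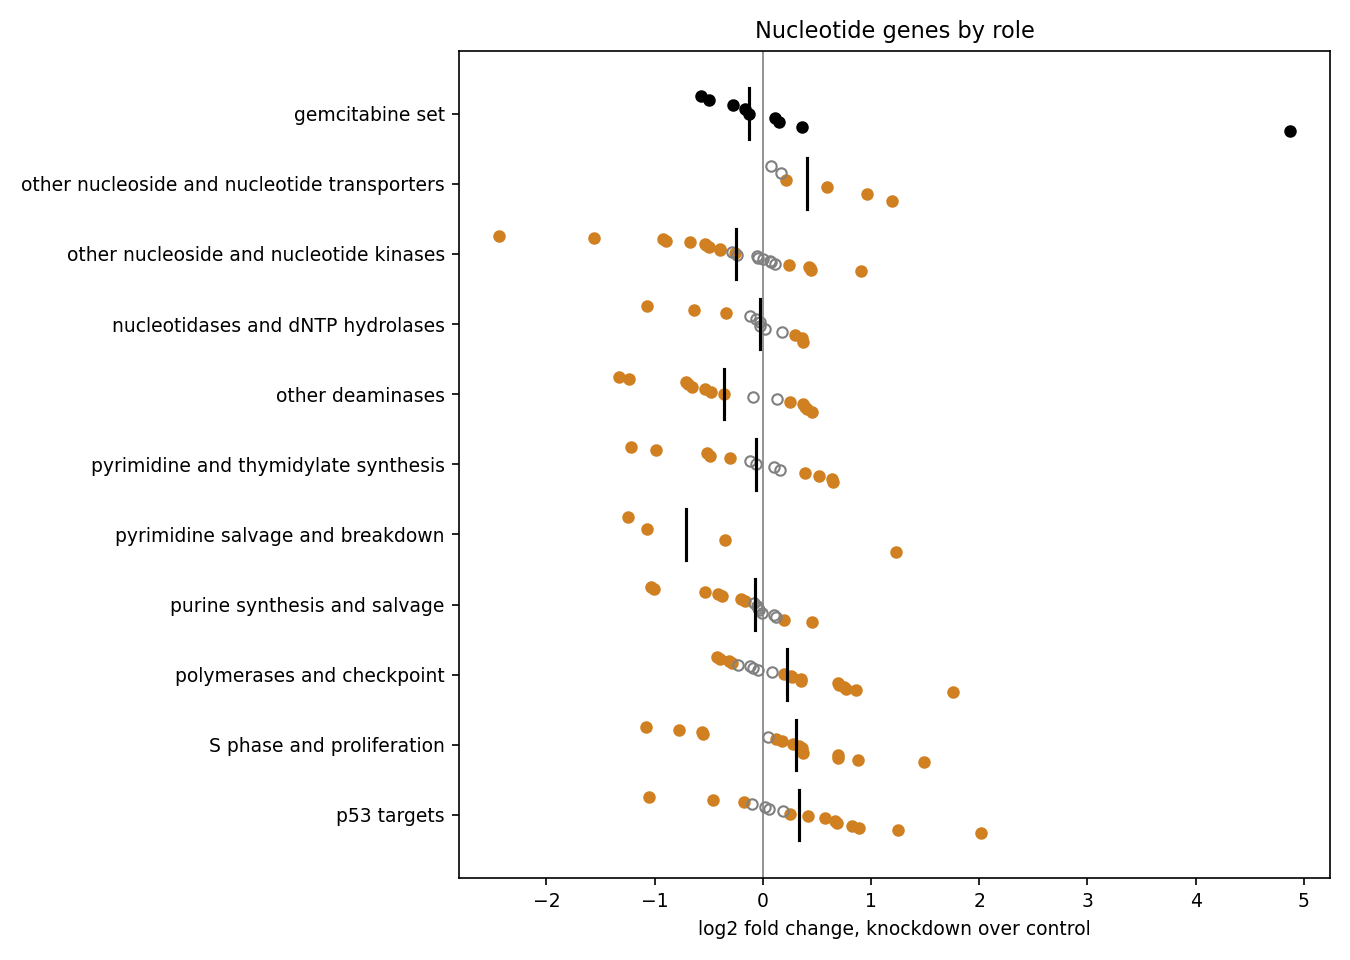
Log2 fold change (knockdown over control) of each tested gene, by list. The gemcitabine set is in black without a test, filled orange points passed edgeR's test at an adjusted p of 0.05, open grey points did not, and vertical bars are list medians. CDA lies at 4.88, beyond every gene of the other lists, which run from −2.44 (AK5) to 2.02 (GDF15).

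RRM2 is known to be transcribed in S phase and RRM2B to be induced by p53, and genes of both programmes were read beside them. Of 16 S phase and proliferation genes, 11 rose and 4 fell, against 33.1% and 34.2% of all genes tested, with CCNE2 at 1.49 and CDC6 at 0.88 on one side and E2F2 (−1.08), MCM5 (−0.77) and MCM3 (−0.56) on the other. The median was 0.31 on the log2 scale, beside −0.28 for RRM2 and 0.36 for RRM1, the other subunit. Of 16 p53 target genes 9 rose and 3 fell, against the same shares, among them GDF15 at 2.02, TP53INP1 at 1.25, SESN2 at 0.89 and MDM2 at 0.83, and FAS at −1.06. CCNE2 overlaps INTS8 and NDUFAF6, TP53INP1 overlaps NDUFAF6, and FAS overlaps ACTA2, so these values are uncertain. The median was 0.33, whereas RRM2B stood at −0.13. Differences between these lists and the reductase genes were not tested.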

How the data were processed

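RNA sequencing of 3 control and 3 knockdown libraries of PANC-1 was used, grouped by the siRNA label. The replicate numbers used here are not the study's, and follow the order of the libraries in the deposit within each group. The submitters' processing notes name GSNAP as a tool, without a version, and GRCh38 as the build. Per the file headers, the deposited count is the number of reads aligned uniquely to a gene model. Per the file headers, the authors' RPKM is adjusted by a size factor, whose method is not given in the sources used here. Strand setting and annotation release are not given there either.

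Symbols, coordinates and upstream sequences came from RefSeq (GRCh38.p14), matched by gene ID for 27814 of 30727 gene models. The unmatched models took 0.323% to 0.338% of each library's reads and were kept in the fit. Counts were filtered with filterByExpr (at least 10 in enough libraries and 15 in total) and TMM-scaled, and all 15190 genes left were tested with edgeR 4.0.16 (glmQLFit, glmQLFTest, two-sided) in R 4.3.3, Benjamini-Hochberg adjusted, with a threshold of 0.05. The scripts were tested on simulated data. The deposited RPKM served only to compare levels between genes. CPM are mean ± SD over 3 libraries, and fold changes are knockdown over control. The SE of a log2 fold change was derived from the test, as its size divided by the square root of the quasi-likelihood F statistic. The smallest p that an exact permutation test of 3 against 3 allows is 0.1, so single values were not tested that way.

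The members and all lists were chosen with earlier results of these data known. Named from each list were the 4 genes with the smallest p past the threshold and every gene past it changed at least 2-fold. The 6 neighbours of CDA and the 5 genes nearest to it in pattern were named too. Some genes that this rule names are not reported here. Alternatives were total library size, DESeq2 1.42.0 size factors and Wald test, limma-voom (limma 3.58.1), a mean log2 CPM of at least 1, no filter, thinning to the smallest total, glmTreat against a 1.5-fold change, and leaving out each library.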

Additional observations from a re-analysis of the deposited data

How the results depend on the processing

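CDA stayed between 4.74 and 5.05 on the log2 scale over every alternative run and over leaving out each library. No member changed direction. The number of members past the threshold, 8 of 9 with all libraries, was 5 to 8 when 1 library was left out, and 5 without any of the knockdown libraries. It was 6 with no low-count filter and with the DESeq2 Wald test. These member counts are a description, since the set was drawn from this contrast. With all libraries, 67.3% of all genes tested passed. The other nucleotide genes past the threshold numbered 76, and 73 to 88 when 1 library was left out. Against a 1.5-fold change 23 of them passed, and 2998 of all genes in place of 10216, a stricter question. All genes past the threshold ran from 9184 to 11277 when 1 library was left out, with the most without control replicate 3. Of the neighbours, CAMK2N1, which did not pass, ran from −0.14 to 0.11 when 1 library was left out, and was above 0 without control replicate 3 (0.11) and without knockdown replicate 1 (0.01). Among genes past the threshold, those that did not pass against a 1.5-fold change included every member but CDA, and ABCC5, ABCC10, ADAR, APOBEC3B, CTPS1, DGUOK, DUT, MTHFD1L, NT5C2, PFAS, PRPS1, UPRT, MCM3, KMT5C, DDOST, MUL1 and KIF17. RRM2 moved by more than the replicate SD, to −0.26, with total library size. No paired analysis was possible because the labels give no replicate numbers. With 8 to 16 reads of CDA per control, counting error limits how precisely its control level is known.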
